A study of Nicotiana tabacum with 36 samples.

Results

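The leaf transcriptomes of 2 tobacco cultivars were compared before any cold, at 0 h (CK), in 6 of the 36 libraries of the series and over all 35519 genes of the count table. Yanyan97 (YT), the cold-resistant cultivar, gave 3 libraries, and Taiyan8 (TT), which is cold susceptible, gave the other 3. Seedlings of Nicotiana tabacum at the five-leaf stage supplied the leaves, and none of these 6 libraries had been at 4 °C. The labels give a day of 16 h light at 22 °C, a night of 8 h at 20 °C and 65% relative humidity for both cultivars, and the study's methods give other temperatures and humidity. The other 30 libraries, 3 for each cultivar after 0.5, 1, 2, 4 and 8 h at 4 °C, entered the fit that estimates the spread of each gene and measured the same genes in other libraries. Replicates are biological per the study's methods, and how many plants each library holds is not given in the sources used here.

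Tobacco is an allotetraploid that carries a gene set from each of its parental species, so many genes have a near-identical copy on another chromosome. The cultivars here are separate breeding lines of this one species. Cold signalling in plants runs through calcium signals and protein kinases to transcription factors (TFs), among them the CBF proteins of the AP2-EREBP family, which switch on genes that protect membranes and proteins.

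Between 23857897 and 25405926 reads per YT library and between 26416612 and 26691552 reads per TT library fell on genes. CPM are counts divided by the TMM-scaled size of their library, which makes libraries of unequal depth comparable. The root mean square difference in log2 CPM was 0.618 to 0.712 between YT replicates and 0.742 to 0.783 between TT replicates, against 0.890 to 1.16 between libraries of different cultivars. The names of the TPM columns end in A for the 3 YT libraries and in B for the 3 TT libraries at 0 h, a letter that no source used here explains, so it cannot be told apart from the cultivar at 0 h. Gene names exist here only for genes in the study's tables, so markers of leaf cell types were not checked.

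Before cold, YT and TT leaves differed at 1445 of 23740 tested genes (6.09%) by more than 2 fold (a log2 difference beyond 1 either way) at an adjusted p under 0.05. YT-higher genes numbered 827 (3.48%) and TT-higher genes 618 (2.60%), and all fold changes below are YT over TT, so that a positive value is higher in YT. Every YT library lay above every TT library for 786 of the 827 YT-higher genes, against 19.4% of all tested genes, and TT libraries lay above YT libraries for 593 of the 618 TT-higher genes, against 19.2%. The median log2 fold change was 1.73 among YT-higher genes (1.67 with genes at the count floor set to their lower bound) and -1.41 among TT-higher genes (-1.40), beside 0 over all tested genes. Most calls were moderate, with 471 of the YT-higher and 440 of the TT-higher genes between 2 and 4 fold. A difference above 16 fold was fitted for 180 YT-higher and 87 TT-higher genes. For 144 YT-higher genes no TT library held more than 3 counts, and for 67 TT-higher genes no YT library did; for these genes a fold change is given as a lower bound. The 2 directions also differed in level, since 28 YT-higher but 154 TT-higher genes averaged over 100 CPM, while 398 YT-higher and 181 TT-higher genes averaged 1 to 10 CPM.

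**Figure D1:**
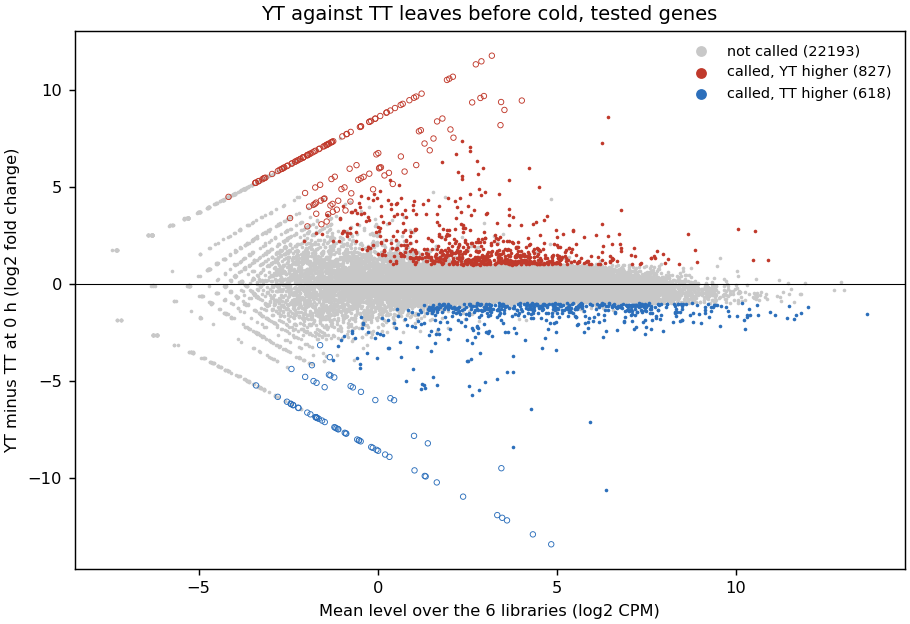
Mean level over the 6 libraries at 0 h (log2 CPM, x axis) against the YT minus TT difference (log2 fold change, y axis) for the 23638 tested genes with a count at 0 h; red points are called YT-higher, blue points TT-higher, grey points not called, and open circles are called genes for which no library of the other cultivar held over 3 counts, whose plotted fold changes are no bounds. Called genes spread over the whole range of levels, and at the highest levels blue points outnumber red ones (28 YT-higher and 154 TT-higher genes over 100 CPM).

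The number of YT-higher genes fell to 503 without TT replicate 1 and to 517 without YT replicate 3. Fitted with limma on the authors' TPM, which carry no TMM scaling, the split was 1413 YT-higher and 233 TT-higher genes. On that scale the median gene stood 0.32 log2 units higher in YT, against 0.173 in CPM without TMM. The TMM factors themselves followed the cultivar, with 1.054 to 1.118 in YT and 0.8932 to 0.9766 in TT. All values here are therefore relative to the median gene of the TMM scale.

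The most abundant TT-higher gene, Nitab4.5_0000682g0090 on chromosome 3, had 7334, 6538 and 5962 CPM in YT, against 20443, 20573 and 17033 CPM in TT (log2 fold change -1.55, SE 0.27, adjusted p = 0.000159). No name for it is given in the sources used here, and the same holds for every gene given below by its identifier alone. The other TT-higher genes of highest mean TPM moved by similar amounts, Nitab4.5_0002207g0050 with a log2 fold change of -1.48, Nitab4.5_0001382g0020 with -1.15 and Nitab4.5_0000667g0190 with -1.62. Replicates of the cultivars did not overlap for any of these 4 genes.

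Among YT-higher genes, Nitab4.5_0000152g0350 on chromosome 2 had 2570, 2437 and 2829 CPM in YT, against 420.2, 398 and 351 CPM in TT (log2 fold change 2.74, SE 0.19, adjusted p = 4.28e-12). Nitab4.5_0000143g0170 on chromosome 11 had 1891, 1562 and 2142 CPM in YT, against 245, 280.3 and 248 CPM in TT (log2 fold change 2.86, SE 0.32, adjusted p = 1.25e-07). In both genes the lowest YT library stood far above the highest TT library. Nitab4.5_0000036g0420 had a log2 fold change of 1.26. Nitab4.5_0000037g0320 reached 1.73 with an adjusted p of 0.042, and its call was lost when any library other than YT replicate 2 was left out.

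Larger ratios separated the cultivars almost completely at a number of genes. Nitab4.5_0000363g0010 on chromosome 17 had 189.6, 69.3 and 258 CPM in YT, against 0.911, 0.126 and 0.271 CPM in TT (log2 fold change 8.61, SE 1.16, adjusted p = 4.71e-06). Nitab4.5_0002977g0140, also on chromosome 17, had 143, 132 and 186 CPM in YT, against 0.455, 0.839 and 1.63 CPM in TT (log2 fold change 7.28, SE 0.42). The reverse held for Nitab4.5_0001840g0050 on chromosome 12, with 0.0381, 0.141 and 0.113 CPM in YT, against 177, 177 and 143 CPM in TT (log2 fold change -10.64, SE 0.49, adjusted p = 6.93e-16). In each of these genes all libraries of the higher cultivar lay above 69 CPM and all libraries of the other below 2 CPM.

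Differences were not spread evenly along the genome. Chromosome 11 had 13.4% of its tested genes called, chromosome 17 had 10.5% and chromosome 21 had 9.58%, against 2.88% on chromosome 9, the lowest of the 24 chromosomes. On chromosome 11, 52 YT-higher genes stood beside 6 TT-higher genes, and chromosome 8 leaned the other way with 13 YT-higher and 31 TT-higher genes. Of 477 windows of 5 Mb with at least 20 tested genes, the median had 4.84% of genes called and 78 had none called. Only 11 windows exceeded 20%, and they held 169 called genes of 514 tested.

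**Figure D2:**
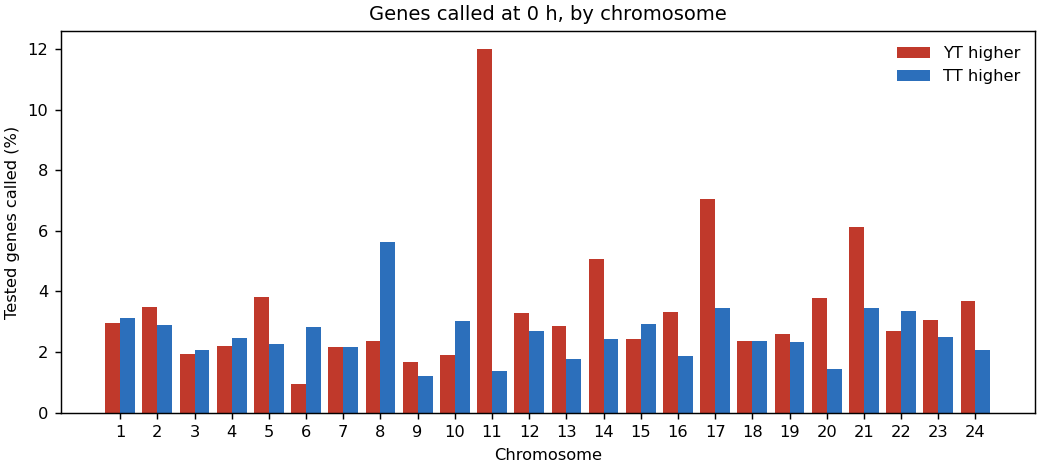
Share of tested genes called at 0 h (%, y axis) on each of the 24 chromosomes (x axis), with red bars for YT-higher and blue bars for TT-higher genes. The red bar of chromosome 11 (52 of 434 tested genes) is the tallest, and chromosome 8 has the tallest blue bar (31 of 552).

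The first 5 Mb of chromosome 11 held the densest group, with 42 YT-higher genes and 1 TT-higher gene among 70 tested (61.4% called). Next came chromosome 17 from 45 to 50 Mb, with 19 YT-higher and 4 TT-higher genes of 56, and from 55 to 60 Mb, with 13 and 1 of 43. Chromosome 8 from 105 to 110 Mb was the main TT-higher stretch, with 1 YT-higher and 14 TT-higher genes of 47, and chromosome 21 from 80 to 85 Mb held 12 YT-higher genes and 1 TT-higher gene of 41. Neighbours also shared a direction: 22.7% of YT-higher genes lay next to another YT-higher gene of their scaffold, while 5.79% of all tested genes did. Among TT-higher genes, 12.6% had a TT-higher neighbour, beside 4.53% of all tested genes. These are descriptions of where calls lie, with no test.

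The longest unbroken run was on scaffold Nitab4.5_0002315 (chr8:108010054-108286630 of the Nitab-v4.5 models), where 12 tested genes in a row were TT-higher and for 11 of them no YT library held over 3 counts. Members of this run in the study's tables include a gene like ARR12, in Arabidopsis a response regulator of cytokinin signalling, a gene like TIL, a lipocalin of membranes that heat and cold induce in Arabidopsis, and a gene like ASB1, a subunit of anthranilate synthase at the start of tryptophan synthesis. ASB1 (Nitab4.5_0002315g0030) had 0 CPM in all 3 YT libraries, against 21.8, 30.1 and 21.5 CPM in TT, at least 220.1-fold lower in YT (adjusted p = 7.66e-14). TIL (Nitab4.5_0002315g0020) had 0 CPM in all 3 YT libraries too, against 18.997, 21.1 and 20.7 CPM in TT, at least 182-fold lower in YT. ARR12 (Nitab4.5_0002315g0010) gave reads in 1 YT library, with 0, 0 and 0.0754 CPM, against 24.7, 20.8 and 20.2 CPM in TT, at least 197-fold lower in YT. A kinase of the SnRK family on this scaffold, Nitab4.5_0002315g0110, had 0 CPM in all 3 YT libraries, against 42.4, 42.6 and 36.01 CPM in TT, at least 363-fold lower in YT (adjusted p = 2.65e-07).

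Another TT-higher run, of 6 genes, lay on scaffold Nitab4.5_0001840 (chr12:112299649-112512839). It includes PAP10 (Nitab4.5_0001840g0060), named for a purple acid phosphatase that frees phosphate in Arabidopsis, with 0 CPM in all 3 YT libraries, against 40.97, 71.4 and 60.3 CPM in TT, at least 518-fold lower in YT (adjusted p = 5.73e-14). Nitab4.5_0001840g0040, with no name here, had 0.191, 0 and 0.0377 CPM in YT, against 28.97, 23.7 and 29.6 CPM in TT.

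The YT-higher runs were on other chromosomes. Scaffold Nitab4.5_0000143 near the start of chromosome 11 held 3 of them, of 9, 8 and 4 genes, and scaffold Nitab4.5_0001740 on chromosome 17 a run of 6 genes, 4 of which had at most 3 counts in any TT library. In the chromosome 17 run, a HIT-type zinc finger gene (Nitab4.5_0001740g0070) had 22.4, 21.9 and 21.1 CPM in YT, against 0, 0.0839 and 0 CPM in TT, at least 178-fold higher in YT (adjusted p = 3.78e-12). A bHLH gene beside it (Nitab4.5_0001740g0080) had 13.1, 10.9 and 19.7 CPM in YT, against 0.0414, 0 and 0 CPM in TT, at least 119-fold higher. Runs of 5 YT-higher genes lay on scaffold Nitab4.5_0001088 of chromosome 11 and on scaffolds Nitab4.5_0000363 and Nitab4.5_0000138 of chromosome 17.

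The study took 50 hub genes of its brown module, which follows the cultivar, from a co-expression network built on these same samples, so their direction is not independent evidence. At 0 h, 34 of the 50 were YT-higher, 11 were TT-higher and 5 were not called, with a median log2 fold change of 1.82 beside 0 over all tested genes (6.09% of which were called). In all 50 the replicates of the cultivars did not overlap. Of all tested genes, YT libraries lay above all TT libraries in 19.4% and TT libraries above all YT libraries in 19.2%. Of the 45 called, 29 had a neighbour on their scaffold called the same way, 13 of the 50 lie on chromosome 11 and 16 on chromosome 17. The 5 uncalled members, AGD2, the ASB1 copy on chromosome 21, a cytochrome b561 gene, APP1 and UGP2, had adjusted p-values of 0.000158 or less and log2 fold changes of 0.87 to 0.97, just under the fold threshold.

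**Figure D3:**
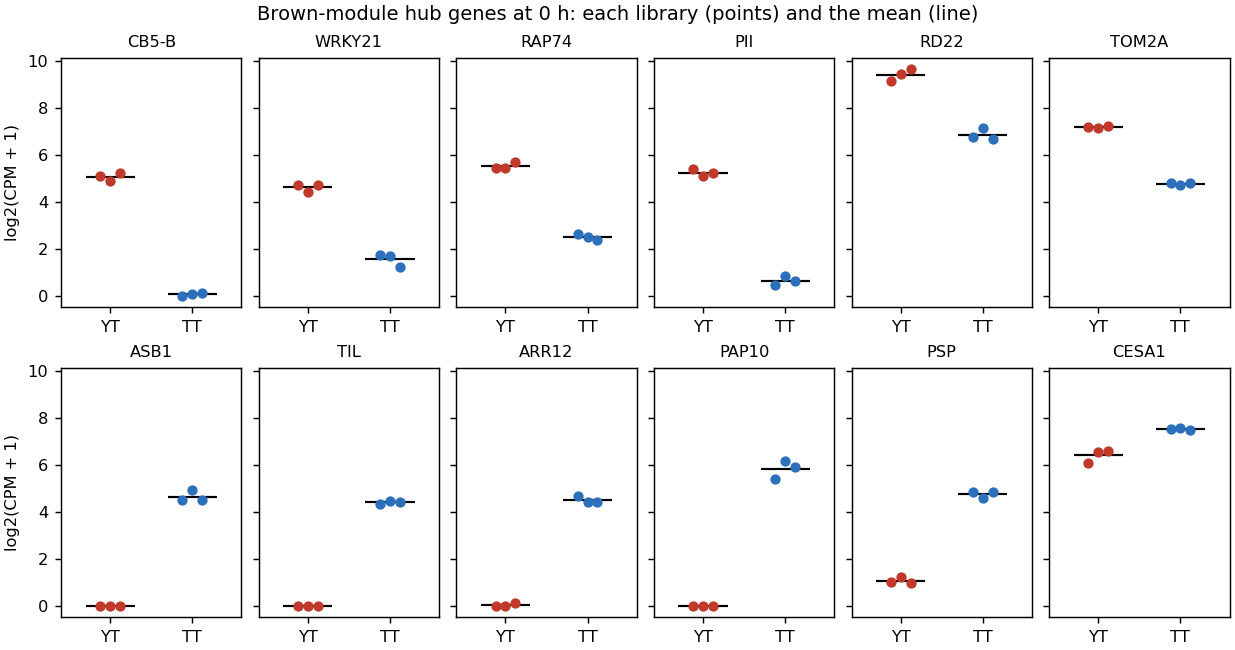
Level of 12 brown-module hub genes at 0 h (log2(CPM + 1), y axis) in each YT library (red points) and TT library (blue points), with the mean as a line. The upper row holds YT-higher genes, the lower row TT-higher genes, and in none do the 2 groups of points overlap.

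Hub genes of transcription and RNA were YT-higher in 7 of 8 cases. Counts by role, here and below, stand beside 34 of all 50 hub genes and 3.48% of all tested genes. The hub list was chosen for following the cultivar, so no theme is read from them. RAP74 (Nitab4.5_0000143g0310), a subunit of the general transcription factor TFIIF, had 42.8, 43.2 and 50.7 CPM in YT, against 5.13, 4.74 and 4.15 CPM in TT (log2 fold change 3.28, SE 0.18, adjusted p = 5.73e-14). WRKY21 (Nitab4.5_0000627g0060), of a plant family of stress and defence TFs, had 25.1, 20.7 and 25.2 CPM in YT, against 2.36, 2.27 and 1.32 CPM in TT (log2 fold change 3.58, SE 0.28, adjusted p = 1.17e-10). In both genes every YT library lay above 20 CPM and every TT library below 6 CPM. A gene of the ABI3/VP1 family (Nitab4.5_0003259g0030), relatives of a seed and abscisic acid regulator, had 22.6, 20.1 and 22.1 CPM in YT, against 10.3, 9.52 and 12.2 CPM in TT. Its log2 fold change of 1.02 (SE 0.16, adjusted p = 3.07e-05) sat at the threshold and dropped below it without TT replicate 1 (0.99), TT replicate 2 (0.94) or YT replicate 1 (0.99). ARR12, above, was the 1 TT-higher gene of this group.

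Hub genes for protein synthesis and turnover were YT-higher in 6 of 7 cases (34 of all 50 hub genes), with APP1, an aminopeptidase, not called. The ribosomal protein L6 gene (Nitab4.5_0000143g0390) had 380.1, 359 and 296 CPM in YT, against 124, 96.3 and 94.0 CPM in TT (log2 fold change 1.72, SE 0.18, adjusted p = 6.36e-08). Isoleucyl-tRNA synthetase (Nitab4.5_0000143g0350), which charges a transfer RNA for translation, had 177, 182 and 191 CPM in YT, against 26.1, 27.9 and 39.2 CPM in TT (log2 fold change 2.56, SE 0.23). Neither gene overlapped between cultivars, and both lie on the chromosome 11 scaffold of the YT-higher runs. ROC7, a cyclophilin that helps proteins fold, had a log2 fold change of 3.07, a DnaJ chaperone gene 3.85, a cysteine proteinase inhibitor 1.898 and a ubiquitin-specific protease 1.78.

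In amino acid and nitrogen metabolism the hub genes were mixed, with 4 of 8 YT-higher, 2 TT-higher and 2 not called. PII (Nitab4.5_0000363g0020), the chloroplast sensor of nitrogen and carbon status, had 41.04, 33.3 and 36.3 CPM in YT, against 0.372, 0.797 and 0.543 CPM in TT (log2 fold change 6.003, SE 0.35, adjusted p = 1.15e-13). PSP (Nitab4.5_0000116g0440), phosphoserine phosphatase, the closing step of a route to serine, had 0.992, 1.34 and 0.981 CPM in YT, against 27.8, 23.4 and 27.9 CPM in TT (log2 fold change -4.57, SE 0.37, adjusted p = 1.52e-10). These differences ran in opposite directions, and in neither gene did the replicates of the cultivars come near each other. Fumarylacetoacetase, of tyrosine breakdown, was at 1.75, a glycine cleavage system H protein, of photorespiration, at 3.61, and pterin-4-alpha-carbinolamine dehydratase at 3.10.

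Membrane and trafficking genes numbered 7, with 4 YT-higher, 2 TT-higher and 1 not called. CB5-B (Nitab4.5_0003151g0070), a cytochrome b5 that passes electrons to lipid-modifying enzymes of the endoplasmic reticulum, had 33.1, 28.2 and 36.3 CPM in YT, against 0, 0.0420 and 0.0775 CPM in TT, at least 266-fold higher in YT (adjusted p = 3.51e-12). TOM2A (Nitab4.5_0002055g0160), a membrane protein that tobamoviruses need in Arabidopsis, had 146, 143 and 150.3 CPM in YT, against 26.7, 25.6 and 27.2 CPM in TT (log2 fold change 2.47, SE 0.14, adjusted p = 5.73e-14). TT was near 0 for CB5-B, whereas TOM2A was well expressed in both cultivars.

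For cell wall, sugars and lipids, 5 of 7 genes were YT-higher, 1 was TT-higher and UGP2, which makes UDP-glucose, was not called. A lipase-like gene (Nitab4.5_0004398g0070) had 19.7, 16.1 and 18.9 CPM in YT, against 0 CPM in all 3 TT libraries, at least 149-fold higher in YT (adjusted p = 9.66e-11). A UDP-glucuronosyltransferase gene (Nitab4.5_0000143g0290) was at least 190.1-fold higher in YT. A sterol 3-beta-glucosyltransferase gene, whose product adds glucose to membrane sterols, had a log2 fold change of 1.64 and IBR1, which in Arabidopsis turns indole-3-butyric acid into active auxin, 3.22. CESA1 (Nitab4.5_0000447g0040), a cellulose synthase of primary walls, had 67.3, 92.8 and 96.2 CPM in YT, against 188, 191 and 177 CPM in TT (log2 fold change -1.12, SE 0.13, adjusted p = 2.24e-07). Its replicates did not overlap, but the value was -0.97 without YT replicate 1.

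Among the 13 hub genes with other or unknown roles, 8 were YT-higher and 5 TT-higher. RD22 (Nitab4.5_0001133g0020), a gene that drought and abscisic acid induce in Arabidopsis, had 574, 697 and 805 CPM in YT, against 109, 139.7 and 102 CPM in TT (log2 fold change 2.57, SE 0.31, adjusted p = 7.77e-07). PDF1, expressed in the epidermis of Arabidopsis, had 235, 281 and 149 CPM in YT, against 78.9, 61.4 and 44.3 CPM in TT (log2 fold change 1.85, SE 0.44, adjusted p = 0.00471). RD22 was among the better expressed hub genes, and neither gene overlapped between cultivars. A protein phosphatase 2C gene, of a family that includes negative regulators of abscisic acid signalling, stood at least 176-fold above TT in YT, and a Mutator-like transposase gene at least 200.6-fold lower.

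Pairs of hub genes with the same description were read on the TPM scale, which is corrected for gene length and so allows copies to be compared and added. The median gene stood 1.28 times higher in YT than in TT on this scale. The coatomer alpha subunit, part of the coat that returns vesicles from the Golgi, is encoded by 2 hub genes. Copy Nitab4.5_0001840g0100 (chr12:112683830-112688922) had 0.317, 0.306 and 0.360 TPM in YT, against 35.4, 38.05 and 33.8 TPM in TT. Copy Nitab4.5_0003674g0060 on chromosome 20 had 75.1, 86.7 and 92.4 TPM in YT, against 34.2, 31.2 and 30.8 TPM in TT. In YT the chromosome 20 copy gave nearly the whole signal, in TT both copies were at a similar level, and the sum was 85.0 ± 8.8 TPM in YT and 67.8 ± 2.7 TPM in TT (SD, n = 3 each), a ratio of 1.25. The sums did not overlap, with 75.4 to 92.7 TPM in YT and 64.7 to 69.5 TPM in TT. Their ratio of 1.25 was close to the 1.28 of the median gene on this scale, so it is not read as a higher total in YT.

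**Figure D4:**
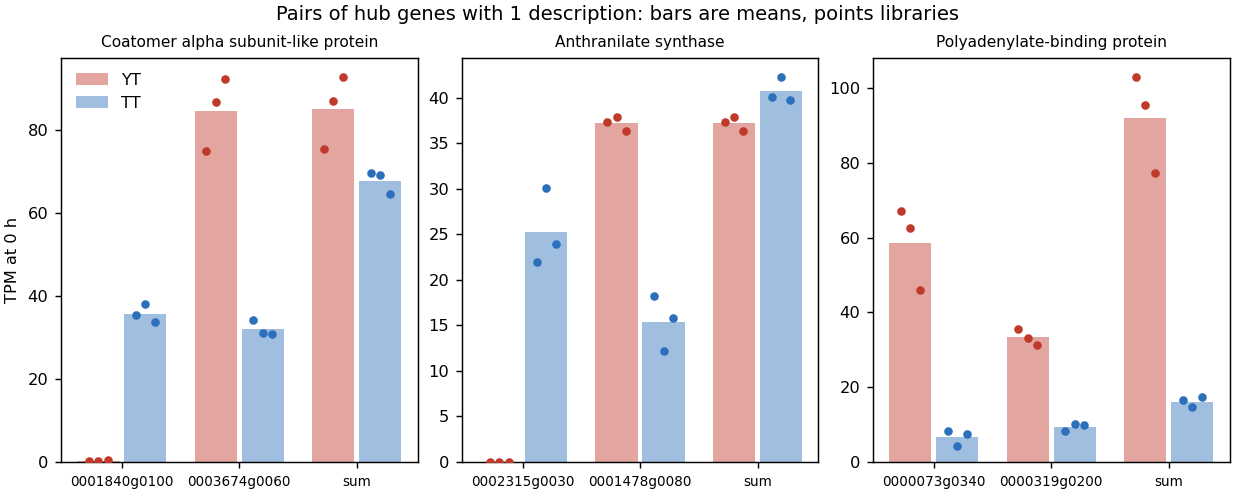
TPM at 0 h (y axis, from 0) of the 2 members of each pair of hub genes with the same description and of their sum, for YT (red) and TT (blue); bars are means of 3 libraries and points single libraries. In the coatomer and anthranilate synthase pairs the first copy is at or near 0 in YT and the other copy is higher in YT. The sums do not overlap (means of 85.0 and 67.8 TPM, and of 37.2 and 40.7 TPM), on a scale where the median gene stood 1.28 times higher in YT. The third pair shares only a description.

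The 2 ASB1 genes showed the same arrangement. The copy on chromosome 8 was listed at 0 TPM in all 3 YT libraries, against 21.9, 30.0 and 23.9 TPM in TT, and the copy on chromosome 21, Nitab4.5_0001478g0080, had 37.4, 37.8 and 36.4 TPM in YT, against 18.2, 12.2 and 15.8 TPM in TT. Summed, they reached 37.2 ± 0.76 TPM in YT and 40.7 ± 1.4 TPM in TT (SD, n = 3 each). This was a ratio of 0.914 without overlap, beside 1.28 for the median gene on this scale. Unlike the coatomer sum, it was higher in TT. The pair described as polyadenylate-binding proteins differed from this, since both members were YT-higher. Nitab4.5_0000073g0340 averaged 58.6 ± 11 TPM in YT and 6.71 ± 2.1 TPM in TT, and Nitab4.5_0000319g0200, which the study's tables also name CID11, averaged 33.4 ± 2.2 TPM in YT and 9.42 ± 1.1 TPM in TT (SD, n = 3 each). Whether these 2 genes are copies of each other was not tested. Multi-mapping reads were not counted in the files, and how reads divide between near-identical copies was not tested.

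The study also lists TFs and protein kinases (PKs) that differed between the cultivars at every time point under cold, chosen on libraries of this series. They are a small part of the TFs and PKs it found to differ at any time point. All 14 of these TFs were called at 0 h, 11 YT-higher and 3 TT-higher, with a median log2 fold change of 3.74 (3.69 at the bounds). Of these, 3 are AP2-EREBP genes close together on scaffold Nitab4.5_0001088 of chromosome 11. Nitab4.5_0001088g0170 had 6.56, 9.93 and 8.75 CPM in YT, against 0.372, 0.923 and 0 CPM in TT (log2 fold change 4.28, SE 0.74, adjusted p = 0.000155). Nitab4.5_0001088g0180 had 4.81, 5.67 and 2.15 CPM in YT, against 0 CPM in all 3 TT libraries, at least 34.5-fold higher in YT. Nitab4.5_0001088g0200 was at least 18.3-fold higher in YT. Another AP2-EREBP gene, Nitab4.5_0000202g0480 on chromosome 24, had 10.2, 9.26 and 10.8 CPM in YT, against 0.166, 0 and 0 CPM in TT (log2 fold change 7.41, SE 0.54). In all of these AP2-EREBP genes every YT library exceeded every TT library.

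The TT-higher TFs of this list were ARR12, a bZIP gene and a MADS gene. The bZIP gene (Nitab4.5_0000188g0190) had 0.687, 0.810 and 0.566 CPM in YT, against 8.65, 12.2 and 11.8 CPM in TT (log2 fold change -3.97, SE 0.50, adjusted p = 1.46e-06), and the MADS gene (Nitab4.5_0001242g0040) had a log2 fold change of -2.05. Of the 6 PKs, 2 were YT-higher and 4 TT-higher, with a median log2 fold change of -2.88 (-2.22 at the bounds). A leucine rich repeat kinase (Nitab4.5_0000525g0010) had 58.1, 59.7 and 66.8 CPM in YT, against 8.40, 9.90 and 12.9 CPM in TT (log2 fold change 2.57, SE 0.32, adjusted p = 1.06e-06). A DUF26 kinase (Nitab4.5_0002465g0090) had 0.305, 0 and 0.226 CPM in YT, against 2.28, 4.32 and 4.77 CPM in TT (log2 fold change -4.40, SE 0.70).

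The study lists 78 PKs as cold-responsive in TT at every time point, a part of those that responded at any. Of these 78, 17 were YT-higher before cold and 0 TT-higher in edgeR's test (3.48% and 2.60% of all tested genes). Their median log2 fold change was 0.62 at 0 h, beside -0.15 for the same genes in the cold libraries. At an unadjusted p under 0.05, 31 were higher in YT and 0 in TT, and DESeq2 called 19 and 0. That list was chosen against the same TT libraries at 0 h, so a low value there enters both the list and this comparison. The count was 11 without TT replicate 1, 11 without TT replicate 2 and 9 without YT replicate 3. Within this list, 3 of 7 leucine rich repeat kinases of class XI and XII and 3 of 10 DUF26 kinases were YT-higher. Nitab4.5_0003021g0040, of the leucine rich repeat group, had 0.954, 1.27 and 3.62 CPM in YT, against 0.248, 0.168 and 0.0775 CPM in TT (log2 fold change 3.53, SE 0.77, adjusted p = 0.00193). Calcium dependent protein kinases, which read calcium signals, had 0 of 6 members called in either direction, with 2 higher in YT at an unadjusted p under 0.05.

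Of the 117 TFs in the study's lists, 17 were YT-higher and 4 TT-higher, but 11 and 3 of these are the TFs above that were chosen for differing between the cultivars. Of the other 103, 6 were YT-higher (5.83%, beside 3.48% of all tested genes) and 1 TT-higher (0.971%, beside 2.60%). Among the 88 TFs listed as cold-responsive in TT at every time point, 4 were YT-higher (4.55%) and 1 TT-higher (1.14%). Among the 47 TFs listed by the same rule for YT, the counts were again 4 (8.51%) and 1 (2.13%). Of the 19 PKs listed by that rule for YT, 2 were YT-higher (10.5%). These cold-responsive lists were chosen against the 0 h libraries of their own cultivar, so those values enter both the lists and these counts. The median log2 fold change of the 103 TFs was 0.159 at 0 h and -0.335 in the cold libraries. WRKY genes contributed 5 of 16 YT-higher members, 1 of them (WRKY21) from the list chosen for differing. Their median log2 fold change was 1.14 at 0 h and 0.047 in the cold libraries. The 5 became 3 without TT replicate 1, TT replicate 2 or YT replicate 3. AP2-EREBP genes contributed 6 of 32 YT-higher members, 5 of them from that list, which leaves 1 of 27, and their median log2 fold change was 0.02 (0.34 with the 11 genes at the count floor set to their bound). No MYB gene of 14 and no GRAS gene of 7 was called; at an unadjusted p under 0.05 there was 1 MYB gene, higher in YT, and 0 GRAS genes.

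The study's pink module holds its hub genes of the cold response. Of these 50 hub genes, 2 were YT-higher (4%, beside 3.48% of all tested genes) and 0 TT-higher (beside 2.60%) in edgeR's test (7 and 1 at an unadjusted p under 0.05, 2 and 0 by DESeq2), with a median log2 fold change of 0.15. The NtCBF names of the study fall on 15 gene models, some of which carry more than 1 name, and 9 of these were tested and 6 were not analysed here. edgeR called 0 of the 9, with 0 at an unadjusted p under 0.05, and DESeq2 called 1, NtCBF21 (Nitab4.5_0001200g0100), TT-higher from 0, 0 and 0 counts in YT, against 5, 4 and 1 in TT. NtCBF5 (Nitab4.5_0002394g0010) had 14, 70 and 34 counts in YT, against 12, 16 and 4 in TT, and NtCBF2 (Nitab4.5_0001083g0010) had 10, 50 and 4 counts in YT, against 12, 11 and 25 in TT. These 2 had the most reads of the 9 tested, and in both the libraries of the cultivars overlapped. No other tested NtCBF gene passed 12 counts in any library at 0 h.

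A GRAS gene of the hub TFs, Nitab4.5_0000143g0040, lies on the same chromosome 11 scaffold as the YT-higher runs and had 47.1, 35.9 and 61.4 CPM in YT, against 40.1, 46.9 and 39.5 CPM in TT (log2 fold change 0.19, SE 0.28, adjusted p = 0.69). A COBRA-like gene of cell expansion (Nitab4.5_0000616g0070) stood at 27.997, 37.04 and 31.6 CPM in YT, against 37.5, 29.4 and 27.3 CPM in TT (log2 fold change 0.04, SE 0.33, adjusted p = 0.96). Both sets of replicates overlapped. Of all 11 hub TFs of the study's modules, 2 were YT-higher and 1 TT-higher, and of the 13 genes it measured by qRT-PCR, 6 were YT-higher and 1 TT-higher (beside 3.48% and 2.60% of all tested genes). All of these called genes are brown module hub genes, chosen for following the cultivar. Of the 8 hub TFs and 6 qRT-PCR genes outside that module, edgeR called 0, with 0 at an unadjusted p under 0.05.

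Whether the differences at 0 h are also present in cold was measured in a fit of the 30 cold libraries alone. These libraries also entered the fit behind the 0 h calls, where they share the filter on low counts, the scaling and the estimate of the spread, but not the 0 h group means. In the fit of the cold libraries, 854 of 23589 tested genes were YT-higher (3.62%) and 648 TT-higher (2.75%) in the mean of the 5 time points, 6.37% together. Of the 827 genes YT-higher at 0 h, 338 (40.9%) were called YT-higher in cold and 2 TT-higher. Of the 618 TT-higher genes, 278 (45%) were called TT-higher in cold and 1 YT-higher. With the 0 h calls taken from the 6 libraries alone, 345 of 825 YT-higher genes (41.8%) and 263 of 634 TT-higher genes (41.5%) were called again in cold. The sign was kept by 87.6% and 92.4% of the genes with a cold value, against 57.9% of genes not called at 0 h. The median log2 fold change was 1.72 at 0 h and 0.79 in cold for the YT-higher genes, and -1.41 and -0.90 for the TT-higher genes. The genes were chosen on their 0 h values, so the 0 h medians are a description and the cold medians are the measurement that did not use the choice.

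**Figure D5:**
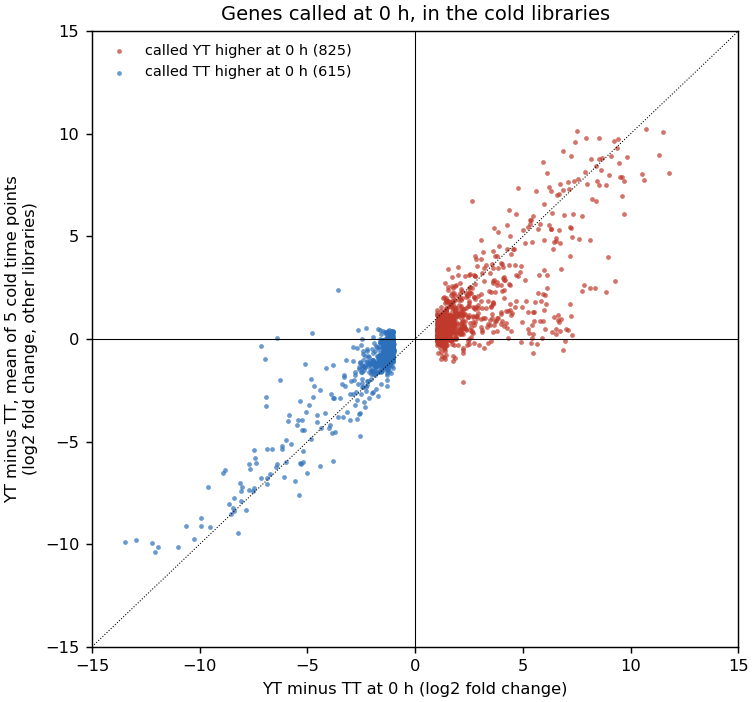
YT minus TT at 0 h (log2 fold change, x axis) against the mean YT minus TT difference over 5 cold time points in other libraries (log2 fold change, y axis) for the 825 YT-higher (red) and 615 TT-higher (blue) genes with a cold value; the dotted line marks equal values. Many moderate differences lie nearer to 0 in cold (medians 1.72 and 0.79 for YT-higher, -1.41 and -0.90 for TT-higher genes). Some of the largest are also drawn nearer to 0 in cold, such as the lipase-like gene (11.79 and 8.10) and PAP10 (-13.45 and -9.89). Their 0 h values are fitted from 0 counts in the other cultivar, with bounds of only 7.22 and -9.02. Neither gene was called in the test of 0 h minus cold, so they do not show a smaller difference in cold. Genes at the count floor are drawn at their fitted fold changes, which are no bounds.

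The share called in cold differed with the size of the 0 h difference. Among genes with reads in both cultivars, 93.5% of YT-higher and 95.5% of TT-higher genes above 16 fold were called in cold in the same direction, against 20.0% and 28% of those between 2 and 4 fold. Where the other cultivar was at the count floor, 65.5% of 142 YT-higher and 92.2% of 64 TT-higher genes were called again, near the 65.1% of YT-higher genes and above the 84.3% of TT-higher genes between 4 and 16 fold. At each of the 5 cold time points, 151 of the YT-higher and 96 of the TT-higher genes were called the same way, and 351 and 204 were called at none. Genes with a neighbour called the same way at 0 h numbered 263. Of these, 191 (72.6%) were called in cold, against 425 of the other 1182 (36%). The 263 also differed more at 0 h, with a median size of 2.45 log2 units against 1.45. The other cultivar was at the count floor for 68 of the 263 and 143 of the 1182. Whether position matters beyond size was not tested. All 12 genes of the run on scaffold Nitab4.5_0002315 and all 9 and 8 of the longer runs on scaffold Nitab4.5_0000143 were called again in cold. Of the 45 hub genes called at 0 h, 44 were called at every cold time point, the exception being CESA1, called at 4 of them. The study picked their module for following YT at all time points of these samples, so this count is no independent evidence. In the cold libraries whose TPM column names end in A, 14 of YT and 9 of TT, 331 YT-higher and 284 TT-higher genes were called again.

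The difference at 0 h itself was set against the mean difference in cold in 1 model of all 36 libraries. It differed by more than 2 fold with an adjusted p under 0.05 at 388 genes (1.63%), of which 242 had a more YT-leaning difference at 0 h and 146 a more TT-leaning one. Among the 827 YT-higher genes, 138 leaned more to YT at 0 h and 5 more to YT in cold. Of the 618 TT-higher genes, 64 leaned more to TT at 0 h. Both lists were picked on the 0 h difference, which also enters this test, so the choice itself pushes the counts that way. Nitab4.5_0000048g0080, a WRKY gene on chromosome 2, had 26.7, 20.4 and 45.2 CPM in YT, against 4.22, 5.91 and 7.48 CPM in TT (log2 fold change 2.39, SE 0.33, adjusted p = 7.12e-06), and in cold its mean log2 fold change was -0.31 (SE 0.14, adjusted p = 0.083). The 2 differences were 2.70 log2 units apart, and this was called in every alternative. Of the TT-higher genes, Nitab4.5_0001367g0030 had 33.7, 36.9 and 49.9 CPM in YT, against 99.3, 149 and 114 CPM in TT (log2 fold change -1.59, SE 0.28, adjusted p = 0.000165), and 0.24 in cold (SE 0.12). The total of 388 moved with single libraries, with 59 genes without YT replicate 3, 71 without TT replicate 1, 97 without TT replicate 2, 170 without YT replicate 1, 302 without YT replicate 2 and 759 without TT replicate 3.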

How the data were processed

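RNA-seq of tobacco leaves gave 36 libraries in 12 groups of 3 (2 cultivars at 0 h and 5 cold time points), of which the 6 at 0 h were compared. The authors trimmed reads with Trim Galore 0.6.4, mapped them with HISAT2 2.0.5 to the Nitab-v4.5 tobacco genome, dropped alignments of mapping quality below a cutoff with SAMtools 1.9 and deposited raw counts per gene from featureCounts 1.6.4, unstranded and without multi-mapping reads per the file headers. Reads from overlapping genes on opposite strands therefore cannot be told apart. The authors' TPM came from StringTie 1.3.4d.

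Counts were tested with edgeR 4.0.16 in R 4.3.3 (filterByExpr, TMM, glmQLFit and glmQLFTest, two-sided) over all 36 libraries with a term per group. The contrast was YT minus TT at 0 h, and calls needed a log2 difference beyond 1 either way together with a p under 0.05 after Benjamini-Hochberg adjustment over 23740 genes. The log2 CPM behind the distances between libraries use a prior count of 2, and fold changes keep edgeR's default. Where no library of a cultivar held more than 3 counts, the bound sets that cultivar at 3 counts per library. The 30 cold libraries were fitted apart. Pairs were read in TPM. Alternatives were DESeq2 1.42.0, its size factors, no filter, the 6 libraries alone, limma 3.58.1 on log2(TPM + 1), adjusted p alone, a replicate block, leaving out libraries, single time points, 10 Mb windows, and, chosen after seeing the data, cold libraries whose TPM names end in A, 0 h calls from the 6 libraries alone, and limma for the named genes. The scripts were tested on simulated data.

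Genes named are members of the study's hub, TF, PK, qRT-PCR and NtCBF lists, called genes of largest fold change with at least 10 CPM and no overlap, those of highest TPM, the largest called change of each big TF or PK family, and those most unlike cold. Members and lists were chosen with earlier results of these data known, and gene names come from the study's tables. Depth was 23857897 to 26691552 counts per 0 h library, and 3 counts correspond to 0.106 to 0.126 CPM. Replicates are biological per the study's methods. No columns of the authors' own comparisons were used, and the gene length in the count table was not tested.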

Additional observations from a re-analysis of the deposited data

Results flagged for a closer look

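The difference between YT and TT at 0 h departed from their mean difference in cold at 388 genes, by the test of that difference itself over all 36 libraries. Groups of 3 libraries were too small for the check of single libraries far from the rest. All genes below were called at 0 h, so their 0 h values were part of how they were picked, and values are log2 differences at 0 h minus cold unless said otherwise.

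Among the genes of the naming rule, the difference leaned more to YT at 0 h by 2.31 for Nitab4.5_0002977g0140, 2.70 for the WRKY gene Nitab4.5_0000048g0080, 2.64 for Nitab4.5_0000381g0130, 2.46 for Nitab4.5_0001461g0070 and 1.54 for the S-domain kinase Nitab4.5_0001651g0090. It leaned more to TT at 0 h by -2.08 for Nitab4.5_0002765g0020, -2.08 for Nitab4.5_0000659g0130 and -1.84 for Nitab4.5_0001367g0030. The first of these, Nitab4.5_0002977g0140, stayed YT-higher in cold with a log2 fold change of 4.97, while Nitab4.5_0000381g0130 stood at 2.21 at 0 h and at -0.43 in cold.

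The other genes come from the study's TF, PK and pink hub lists and were chosen after their values were seen. Among kinases, the values were 4.30 for the wall-associated kinase-like gene Nitab4.5_0002372g0020, 2.85 and 1.36 for the receptor-like cytoplasmic kinases Nitab4.5_0001323g0150 and Nitab4.5_0003173g0080, 1.199 for their relative Nitab4.5_0000101g0350, 1.76 and 1.16 for the DUF26 kinases Nitab4.5_0000207g0430 and Nitab4.5_0002907g0030, 1.51 for the LRK10-like kinase Nitab4.5_0000694g0060 and 1.26 for the leucine rich repeat kinase Nitab4.5_0000318g0160. In 2 of them the direction turned, since Nitab4.5_0002372g0020 had a log2 fold change of 2.20 at 0 h and -2.10 in cold, and Nitab4.5_0001323g0150 had 1.76 at 0 h and -1.09 in cold. These 2 genes averaged 0.700 and 1.25 CPM in YT and 0.146 and 0.365 CPM in TT at 0 h, the lowest levels of this group. Among TFs, the PLATZ gene Nitab4.5_0003437g0010 gave 1.81 and the WRKY gene Nitab4.5_0000046g0020 gave 1.47. Among pink hub genes, the resistance-protein gene Nitab4.5_0001085g0150 gave 2.09 and the RING zinc finger gene Nitab4.5_0001021g0070 gave 1.14.

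Of these 20 genes, 9 were called in all 10 alternatives tried for this test, namely Nitab4.5_0002977g0140, Nitab4.5_0000048g0080, Nitab4.5_0000381g0130, Nitab4.5_0002765g0020, Nitab4.5_0001367g0030, Nitab4.5_0002372g0020, Nitab4.5_0001323g0150, Nitab4.5_0003437g0010 and Nitab4.5_0001085g0150. The other 11 lost the call when single 0 h libraries were left out.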

How the results depend on the processing

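The call totals at 0 h (1445 genes) kept within 1.5 times under DESeq2 (1660), DESeq2 size factors (1451), no expression filter (1399) and the 6 libraries alone (1459), and lay between 971 and 1799 when each 0 h library was left out. With no fold threshold there were 4105 genes, 2137 YT-higher and 1968 TT-higher. limma on log2(TPM + 1) gave 1413 YT-higher and 233 TT-higher genes, and leaving out each library gave 503 to 1079 and 454 to 720. Replicate numbers are shared by the cultivars. Same-numbered libraries deviated together by correlations of 0.0188, -0.0287 and 0.0911, within the -0.157 to 0.148 of differently numbered ones. With so few libraries, these values cannot settle whether same-numbered libraries share more than a number. With the replicate block 1432 genes were called. The count of genes unlike cold (388) was 624 by DESeq2 and 59 to 759 without single libraries; the 0 h genes called again in cold were 200 YT-higher at 8 h alone, and 175 and 156 TT-higher at 2 h and 8 h alone.

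Among lists, TT-higher members were 2 of the TT cold-responsive TFs by DESeq2 and in the 6 libraries alone, against 1, and 1 of the AP2-EREBP and 1 of the NtCBF genes by DESeq2, against 0. Leaving out single libraries gave 9 to 22 YT-higher TT cold-responsive PKs (11 without TT replicate 1 or 2), 3 to 5 WRKY and 0 to 2 pink hub genes. The densest window held 46.9% called genes at 10 Mb width. Of 84 named genes called at 0 h, 79 were called in each of the 11 edgeR and DESeq2 refits; Nitab4.5_0000037g0320 lost its call also with the block (adjusted p = 0.0519) and, besides those given above, Nitab4.5_0000024g0260 lost its call without TT replicate 1 or 2 and the coatomer copy Nitab4.5_0003674g0060 (0.94) without TT replicate 3 or YT replicate 3. Under limma on log2(TPM + 1), tried for named genes after seeing the data, 79 of the 83 measured were called the same way and 4 were not called (CESA1, Nitab4.5_0000375g0160, Nitab4.5_0001382g0020 and Nitab4.5_0003021g0040). In those refits the sign turned only in genes that were not called: Nitab4.5_0000749g0090 (0.0012 with the block, 0.0019 in the 6 libraries, -0.22 to 0.25 over single omissions), Nitab4.5_0000616g0070 (-0.075 to 0.18 over single omissions), NtCBF2 (Nitab4.5_0001083g0010, -1.27 to 0.74, lowest without YT replicate 2) and Nitab4.5_0000143g0040 (-0.021 to 0.36, lowest without YT replicate 3). The cause was not tested for any of these changes. With 3 libraries a group and genes at 3 counts or fewer in 1 cultivar, such folds are known only as bounds.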
